A study of Mus musculus with 2 samples.

Results

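The 9 genes described here code for 6 secreted neurotrophic factors (*Ntf3*, *Bdnf*, *Ntf5*, *Nrtn*, *Artn* and *Gdnf*) and for 3 cell surface receptors (*Ntrk2*, *Ntrk3* and *Gfra1*). They were chosen by name from the ligand and receptor families that link limb tissue to the nerves growing into it. The rule uses no measured value, though earlier results of these data were known when the genes were chosen. All 9 had a row among the 43346 mouse gene rows of each table, matched through GENCODE M21, and all 9 passed the minimum of a mean of 0.1 TPM (transcript abundance scaled by length and depth) that left 21599 genes. The data are total RNA sequencing of whole limb from healthy mouse embryos of strain B6NCrl, 15.5 days old, with no treatment named. The 1 group had 2 libraries, replicate 2 from a pool of 62 embryos and replicate 1 from a separate pool of 78, males and females mixed in both. Each library started from 10 ng of RNA longer than 200 nt, and held 41757268 expected counts in replicate 2 and 35104685 in replicate 1. The labels do not say which limbs were taken. With 1 group there is no condition to compare, so the results below are levels, ratios between genes within a library, transcript forms, and the spread between the libraries, with no p-value.

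Neurotrophins are small secreted proteins that keep sensory and motor neurons alive and guide their axons. Each prefers a receptor tyrosine kinase of the Trk family (BDNF and NT-4/5 bind TrkB, NT-3 binds TrkC), and all of them also bind the receptor Ngfr. Ligands of the GDNF family bind a co-receptor held on the cell surface by a lipid anchor (GDNF prefers GFRA1, neurturin GFRA2, artemin GFRA3, persephin GFRA4), and the complex acts through the kinase RET. In the embryonic mouse limb NT-3 is known as the factor that muscle sensory neurons depend on, and GDNF as a cue for motor axons that enter the hindlimb.

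The receptor genes are spliced into forms that differ in what they can do, and the sequences below mark where these forms part. They are shown because the balance of the forms differed between the 2 Trk receptors. They are coding sequence of GENCODE M21 transcripts on GRCm38, printed 5' to 3' in the sense of the gene. Lower case marks bases that both forms of a gene share, and capitals mark bases found in the named form and not in the other.
In *Ntrk2*, the form without a kinase leaves the shared sequence at chr13:58932023-58932060 on the plus strand and ends after a short tail, whose last 3 bases are the stop codon.
Ntrk2 truncated: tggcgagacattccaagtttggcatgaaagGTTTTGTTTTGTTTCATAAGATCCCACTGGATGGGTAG
The kinase form skips that exon and goes on at chr13:58985802-58985861, of which the opening 60 bases are shown.
Ntrk2 full length: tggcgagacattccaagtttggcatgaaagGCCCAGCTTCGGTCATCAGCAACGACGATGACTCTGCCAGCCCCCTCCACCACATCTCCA
In *Ntrk3* the truncated form has a longer tail of its own, spliced from exons that lie between the ends of chr7:78302629-78304426 on the minus strand.
Ntrk3 truncated: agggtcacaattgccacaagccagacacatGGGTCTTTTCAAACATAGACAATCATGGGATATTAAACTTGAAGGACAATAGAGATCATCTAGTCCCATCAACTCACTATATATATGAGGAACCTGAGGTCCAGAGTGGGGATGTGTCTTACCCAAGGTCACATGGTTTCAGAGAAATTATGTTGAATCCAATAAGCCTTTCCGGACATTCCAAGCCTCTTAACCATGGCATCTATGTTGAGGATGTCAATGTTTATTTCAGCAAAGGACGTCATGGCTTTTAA
The *Ntrk3* kinase form goes on at chr7:78260355-78260414 on the minus strand, again with 60 bases shown.
Ntrk3 full length: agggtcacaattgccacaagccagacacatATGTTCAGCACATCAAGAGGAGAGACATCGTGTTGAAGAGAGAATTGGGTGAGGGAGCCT
Some kinase forms of *Ntrk3* hold a further exon of 42 bases at chr7:78204103-78204144 on the minus strand, in the kinase part, and the capitals are that exon.
Ntrk3 kinase-part insert: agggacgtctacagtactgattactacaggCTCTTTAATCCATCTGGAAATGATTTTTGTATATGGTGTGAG
In *Gfra1* the forms differ by an exon of 15 bases at chr19:58392573-58392587 on the minus strand, in capitals in the line for the longer form and missing in the line for the shorter.
Gfra1 with the exon: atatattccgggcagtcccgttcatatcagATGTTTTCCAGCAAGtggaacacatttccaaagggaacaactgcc
Gfra1 without the exon: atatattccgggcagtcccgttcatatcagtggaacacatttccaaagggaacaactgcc

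In both libraries *Nrtn*, *Gfra1* and *Ntf3* had the highest levels of the 9 genes, at 12.6 TPM or above, and *Gdnf* had the lowest. Of the 9, 8 had at least 1 TPM in both libraries (all but *Gdnf*), against 34.6% of all mouse gene rows, and 3 had at least 10 TPM in both. The 34.6% is 15007 of all 43346 rows, whereas all 9 genes were among the 21599 that passed the mean of 0.1 TPM. The means ranged between 0.740 TPM and 14.8 TPM. For scale, the median over all genes with at least 1 TPM in both libraries was 17.0 TPM, so these were levels from the middle of the range downward. In a whole-limb sample, fewer cells of a type and less RNA per cell cannot be told apart.

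Gene positions are those of GENCODE M21 on GRCm38. *Ntf3* codes for NT-3 and lies at chr6:126101412-126166910 (ENSMUSG00000049107.9). It had 12.6 TPM in replicate 2, against 15.5 TPM in replicate 1, a mean of 14.0 ± 1.99 TPM (SD, n = 2), from 441 and 436 expected counts in the same order. It was the highest of the neurotrophin genes among the 9 in each library.

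*Bdnf* codes for brain-derived neurotrophic factor, a ligand of TrkB (chr2:109674700-109727007, ENSMUSG00000048482.10). Its level was 1.97 TPM in replicate 2, against 2.54 TPM in replicate 1, a mean of 2.25 ± 0.403 TPM (SD, n = 2). An annotated antisense gene, Gm45346, overlaps it, and since the strand setting of the counting is not given in the sources used here, reads of the pair cannot be told apart where the genes overlap.

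*Ntf5* codes for NT-4/5, the other TrkB ligand (chr7:45413695-45417179, ENSMUSG00000074121.2). It had 2.34 TPM in replicate 2, against 1.54 TPM in replicate 1, a mean of 1.94 ± 0.566 TPM (SD, n = 2), from 119 and 64 expected counts. *Bdnf* and *Ntf5* changed places between the libraries, with *Ntf5* higher in replicate 2 and *Bdnf* higher in replicate 1.

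The ratio of *Ntf3* to *Bdnf* was almost the same in the libraries. On the scale of log2(TPM + 0.1), used here for every ratio between genes and difference between libraries, it was 2.62 in replicate 2 and 2.56 in replicate 1, or 6.02-fold on average. The ratio of *Ntf3* to *Ntf5* was 2.38 in replicate 2 and 3.25 in replicate 1, or 7.04-fold on average. Both ratios were larger in each library than the spread between libraries at these levels. That spread is the absolute log2 difference between the libraries that 95% of genes of a like level stay within, taken in 20 bins of mean TPM, and here the larger of the values for the pair was 1.94. The log2 ratio of *Ntf5* to *Bdnf* was 0.24 in replicate 2 and -0.69 in replicate 1, inside that spread, so these genes were not separated. Counted per read without division by transcript length (CPM), the mean log2 ratio of *Ntf3* to *Bdnf* was 1.03 and no longer beyond the spread, while that of *Ntf3* to *Ntf5* was 2.28 and still beyond it.

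*Ntrk2* codes for TrkB (chr13:58806569-59133970, ENSMUSG00000055254.10). It had 7.32 TPM in replicate 2, against 9.59 TPM in replicate 1, a mean of 8.46 ± 1.61 TPM (SD, n = 2). *Ntrk3*, which codes for TrkC, the receptor of NT-3 (chr7:78175959-78738012, ENSMUSG00000059146.8), had 1.85 TPM in replicate 2, against 2.60 TPM in replicate 1, a mean of 2.23 ± 0.530 TPM (SD, n = 2). *Ntrk2* was therefore the higher of these receptor genes in both libraries, by 3.70-fold on average. With log2 ratios of 1.93 in replicate 2 and 1.84 in replicate 1, under the spread of 1.94, this difference did not pass the rule. It passed with posterior mean TPM or a pseudocount of 1. It also passed with CPM, but CPM is not divided by length and favours *Ntrk2* (mean length 7075 nt in replicate 2, against 2513 nt for *Ntrk3*). Both loci are overlapped by genes on the opposite strand (Gm47423, 4930415C11Rik and Gm34245 at *Ntrk2*, 4921513I08Rik and Gm9885 at *Ntrk3*), with the same limit as for *Bdnf*. Genes on the same strand also overlap them (C630044B11Rik at *Ntrk2*, Gm44607 and Gm39038 at *Ntrk3*), and no strand setting could separate those reads.

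Over whole genes, ligand and receptor levels were opposite in order for the 2 Trk systems, though only the *Ntrk3* difference passed the rule. *Ntrk3* was lower than its ligand gene *Ntf3*, with log2 ratios of -2.71 in replicate 2 and -2.53 in replicate 1, or 6.13-fold on average, beyond the spread in both. *Ntrk2* was higher than *Bdnf*, with log2 ratios of 1.84 in replicate 2 and 1.88 in replicate 1, which stayed inside the spread of 1.94 but passed it with posterior mean TPM, a pseudocount of 1 or CPM. The opposite order did not hold for the full-length forms described below. Full-length *Ntrk2* (0.350 TPM in replicate 2, 0.580 in replicate 1) was lower than *Bdnf* in both libraries. Full-length *Ntrk3* (1.20 in replicate 2, 1.05 in replicate 1) was lower than *Ntf3*. The spread was not worked out for forms.

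**Figure D1:**
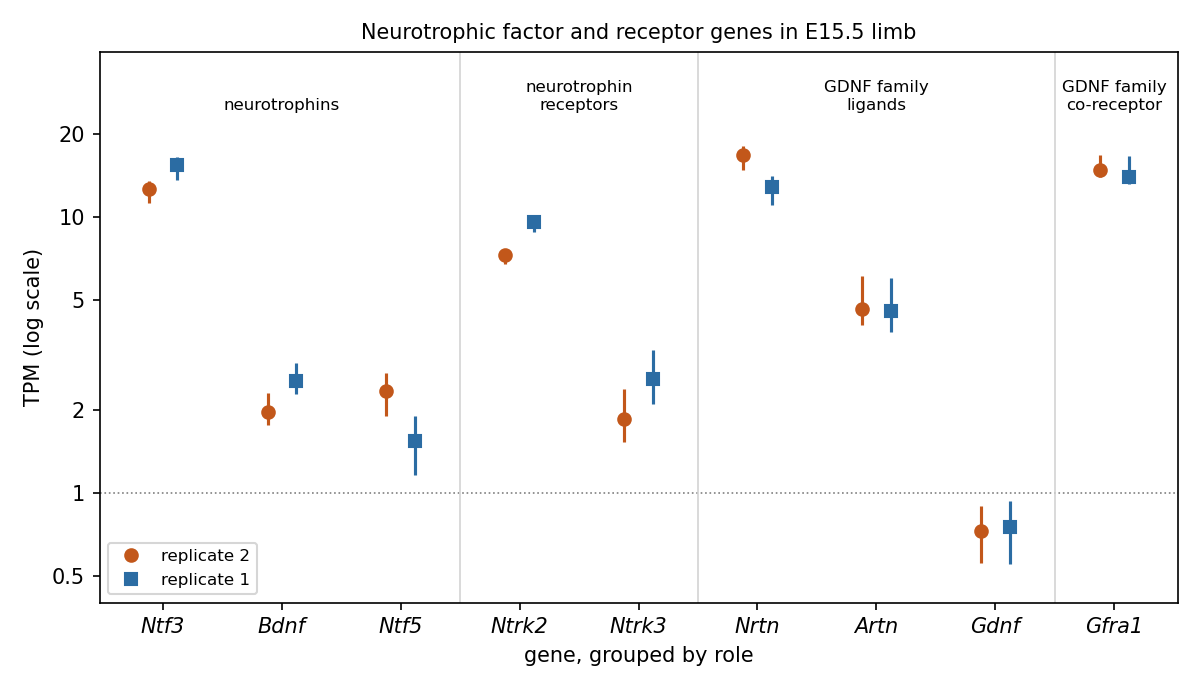
TPM (log scale) of each of the 9 genes, grouped by role, with replicate 2 as circles and replicate 1 as squares. Vertical lines are the authors' deposited intervals of each TPM value, which cover read counting and assignment, and the dotted line marks 1 TPM, under which *Gdnf* alone lay.

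The forms of *Ntrk2* were unequal in both libraries. Truncated TrkB lacks the kinase, binds BDNF all the same and is known from many non-neuronal cells. This form (Ntrk2-202) had 6.98 TPM in replicate 2, against 9.01 TPM in replicate 1, or 95.2% and 94.0% of the gene. The full-length form (Ntrk2-201) had 0.350 TPM in replicate 2, against 0.580 TPM in replicate 1, from 79.7 and 110 expected counts. The share of the truncated form averaged 94.6% ± 0.900 (SD, n = 2), and it was 19.9 times the full-length form in replicate 2 and 15.5 times in replicate 1. Most of the *Ntrk2* RNA counted here was thus the form that ends in the short tail printed above. Only 2 *Ntrk2* transcripts were listed for counting, where GENCODE M21 has 10, so forms not listed could not be given a share.

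*Ntrk3*, with 6 transcripts listed where GENCODE M21 has 20, did not have this imbalance. Its full-length forms together had 1.20 TPM in replicate 2, against 1.05 TPM in replicate 1, from 99.9 and 66.7 expected counts. The truncated form (Ntrk3-202) had 0.210 TPM in replicate 2, with a deposited interval of 0.0329 to 0.473 TPM, and 0.860 TPM in replicate 1, with an interval of 0.321 to 1.27 TPM. Full-length forms were 64.9% of the gene in replicate 2 and 40.2% in replicate 1 (52.5% ± 17.4, SD, n = 2), and the truncated form 11.4% in replicate 2 and 33.0% in replicate 1 (22.2% ± 15.3, SD, n = 2). The rest was in transcripts without a coding sequence, 23.8% in replicate 2 and 26.8% in replicate 1, most of it Ntrk3-203. These shares rest on 9.16 and 13.5 expected counts in the same order. The truncated form stayed under the full-length forms in both libraries, with a ratio of 0.175 in replicate 2 and 0.819 in replicate 1, but its size is poorly fixed, since it rests on 12.9 and 42.8 expected counts. Skeletal muscle markers were also higher in replicate 1, with values given below, and their part in this difference was not tested.

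Among the transcripts listed, the split by forms turned round the order of the Trk receptors in TPM. Over whole genes *Ntrk2* was the higher, though this did not pass the rule. Full-length *Ntrk2* was lower than full-length *Ntrk3* in both libraries, 0.292 times its TPM in replicate 2 and 0.552 times in replicate 1. In expected counts, which are not divided by length, full-length *Ntrk2* was lower in replicate 2 only (79.7 against 99.9). It was higher in replicate 1 (110 against 66.7). For the truncated forms *Ntrk2* was 33.2 times *Ntrk3* in replicate 2 and 10.5 times in replicate 1. No interval was computed for a sum of forms, and the spread between libraries was not worked out for forms, so these ratios stand as the values of 2 libraries.

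Among the full-length *Ntrk3* forms, the insert form and the form without it are known to differ in signalling. Forms with the insert printed above (ENSMUST00000193002.1 and ENSMUST00000195262.1) had 0.330 TPM in replicate 2, against 0.640 TPM in replicate 1. The form without it (Ntrk3-201) had 0.870 TPM in replicate 2, against 0.410 TPM in replicate 1. Without the insert was therefore the larger share in replicate 2, at 72.5%, and the smaller in replicate 1, at 39.0%, so the libraries give no order for them. For counting, Ntrk3-201 was modelled at 3300 nt and the truncated Ntrk3-202 at 2337 nt, whereas GENCODE M21 gives 19703 nt and 3977 nt. Reads in the added sequence were not counted.

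**Figure D2:**
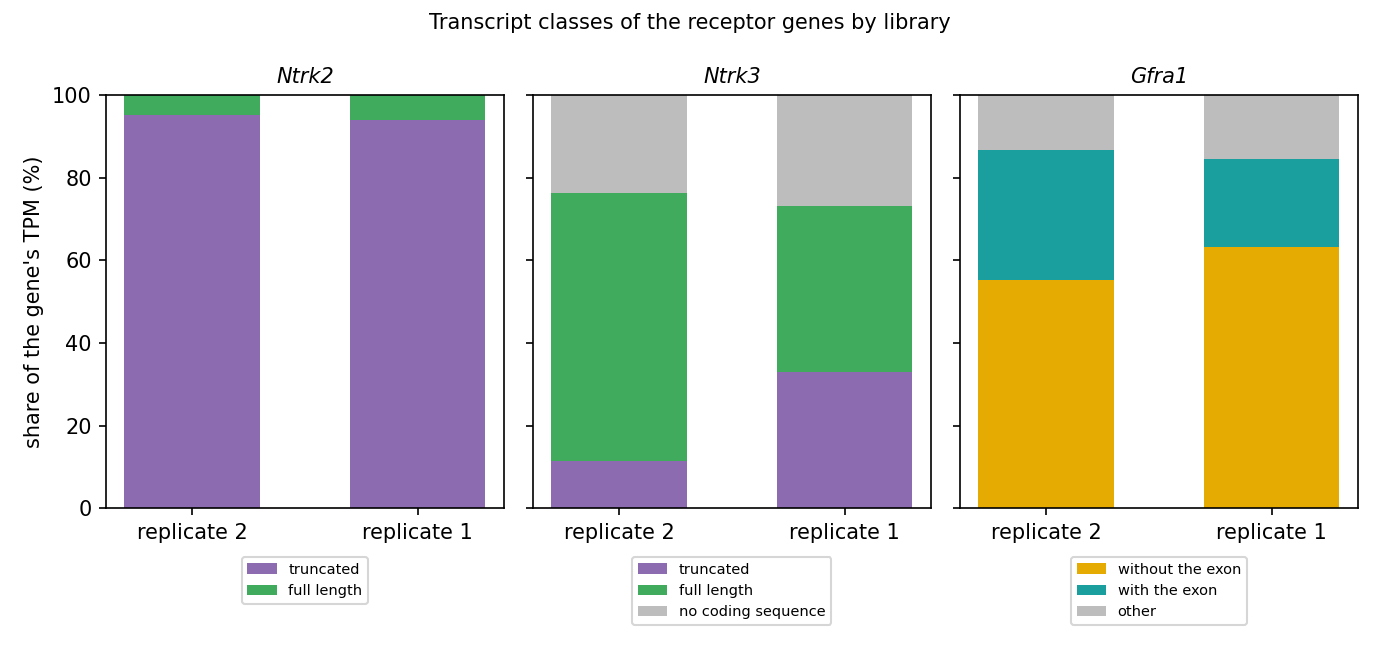
Share of each receptor gene's TPM (percent) by transcript class, with replicate 2 on the left in each panel. The truncated form fills 95.2% and 94.0% of *Ntrk2*, and the classes of *Ntrk3* and *Gfra1* differ more between the libraries.

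Forms of *Bdnf* and *Ntf3* differ in their leader exons. Some also differ in the length of their coding sequence, such as Ntf3-201 with 774 nt and Ntf3-202 with 813 nt. For *Bdnf*, which has many alternative leader exons joined to 1 shared coding exon, 11 transcripts were listed and 6 were at 0 in both libraries. The most abundant was ENSMUST00000111045.4, the top row in the plot of transcripts, whose leader exon lies at chr2:109693563-109693909. It had 1.52 TPM in replicate 2, against 2.07 TPM in replicate 1, from 160 and 179 expected counts. These are 77.2% and 81.8% of the gene. In the posterior estimates that the authors also deposited, the share was 57.7% in replicate 2 and 58.2% in replicate 1, so this transcript led in both estimates but its share depends on which is used. The deposited interval of its TPM, 0.838 to 1.52 in replicate 2 and 1.07 to 2.00 in replicate 1, has the point value at or above its upper end. *Ntf3* was split between Ntf3-202, with 56.8% in replicate 2 and 43.0% in replicate 1, and Ntf3-201, with 43.2% in replicate 2 and 57.0% in replicate 1, and neither led in both libraries. *Ntf5* was listed with 1 transcript, Ntf5-201.

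**Figure D3:**
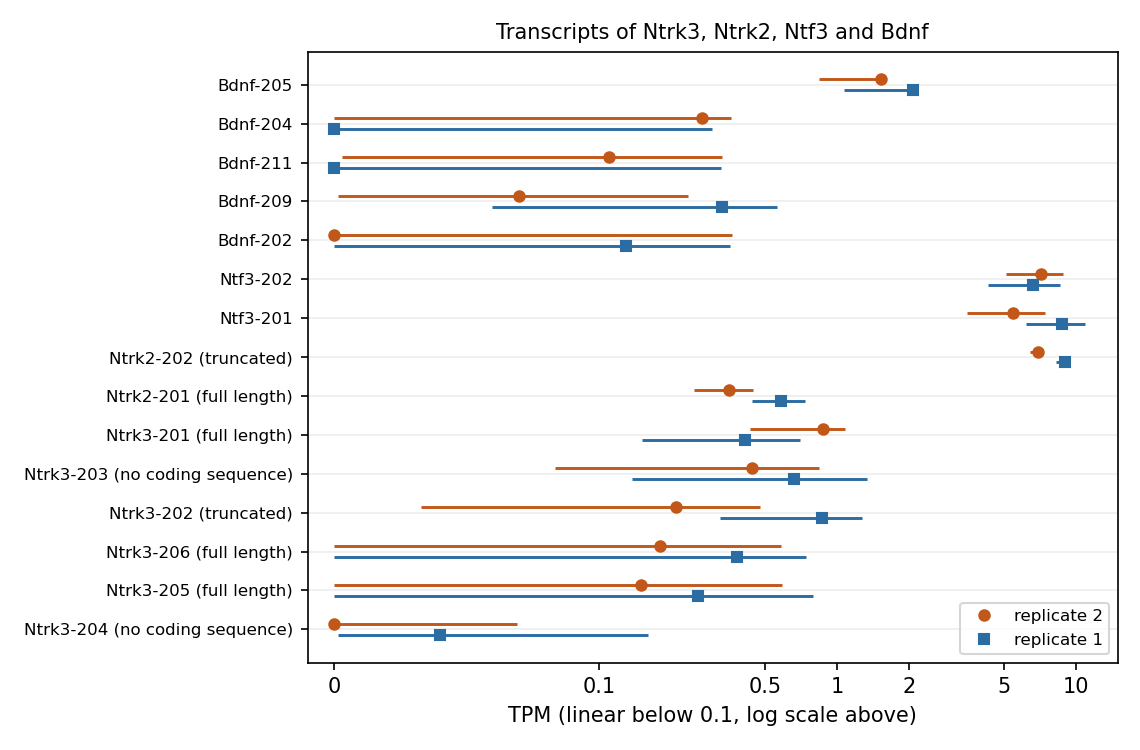
TPM of the transcripts of *Bdnf*, *Ntf3*, *Ntrk2* and *Ntrk3* (linear under 0.1 TPM, log scale above), replicate 2 as circles above replicate 1 as squares, with the authors' deposited intervals as lines. The truncated Ntrk2-202 stands far above Ntrk2-201, and the intervals of the full-length *Ntrk3* forms with the insert reach down to almost 0.

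*Nrtn* codes for neurturin and lies at chr17:56751325-56757530 (ENSMUSG00000039481.5). It had 16.8 TPM in replicate 2, against 12.9 TPM in replicate 1, a mean of 14.8 ± 2.81 TPM (SD, n = 2), from 424 and 265 expected counts. It was the highest GDNF family ligand in both libraries, and its 1 listed transcript was Nrtn-201.

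*Artn* codes for artemin, a factor for sympathetic and some sensory neurons (chr4:117926162-117929763, ENSMUSG00000028539.10). It had 4.66 TPM in replicate 2, against 4.57 TPM in replicate 1, a mean of 4.62 ± 0.0636 TPM (SD, n = 2). Its most abundant transcript was Artn-201, with 47.1% of the gene in replicate 2 and 50.2% in replicate 1.

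*Gdnf*, the founding member of the family (chr15:7810846-7837575, ENSMUSG00000022144.3), had 0.73 TPM in replicate 2, against 0.75 TPM in replicate 1, a mean of 0.740 ± 0.0141 TPM (SD, n = 2). These levels rest on 68 and 57 expected counts, well above the 3 counts that a count of 0 could still hide, and on 1 listed transcript, Gdnf-201. The libraries agree closely, but counting alone leaves an interval of 0.559 to 0.898 TPM in replicate 2 and of 0.554 to 0.936 TPM in replicate 1.

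The order of these ligands was *Nrtn*, then *Artn*, then *Gdnf* in both libraries. *Nrtn* was 3.14-fold higher than *Artn* on average, with log2 ratios of 1.83 in replicate 2 and 1.47 in replicate 1, beyond the spread of 1.01. In CPM, which is not divided by length, this mean log2 ratio was 0.90 and no longer beyond the spread. *Gdnf* was 17.6-fold lower than *Nrtn*, with log2 ratios of -4.35 in replicate 2 and -3.93 in replicate 1, beyond the spread of 3.68. *Gdnf* was also lower than *Artn*, with log2 ratios of -2.52 in replicate 2 and -2.46 in replicate 1. Genes as low in TPM as *Gdnf* vary enough between the libraries that this did not pass the same spread. It did pass with posterior mean TPM, a pseudocount of 1 or CPM. With bins by mean expected count, chosen after seeing the data, the spread at the level of *Gdnf* was 1.25 and the ratio passed too.

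*Gfra1* codes for the co-receptor that GDNF prefers (chr19:58235604-58455909, ENSMUSG00000025089.11). It had 14.8 TPM in replicate 2, against 14.0 TPM in replicate 1, a mean of 14.4 ± 0.573 TPM (SD, n = 2), from 1437 and 1142 expected counts. An antisense gene, Gm16277, overlaps it, with the limit given for *Bdnf*. *Gfra1* was 17.3-fold higher than the gene of its ligand *Gdnf* on average, with log2 ratios of 4.17 in replicate 2 and 4.05 in replicate 1, beyond the spread in both. In this pair the receptor was high and the ligand low, whereas in the pair of *Ntrk3* and *Ntf3* the receptor was low and the ligand high.

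The *Gfra1* form without the exon of 15 bases (Gfra1-203) was the more abundant in both libraries. It had 8.19 TPM in replicate 2, against 8.86 TPM in replicate 1, or 55.3% and 63.3% of the gene (59.3% ± 5.67, SD, n = 2). The 3 forms with the exon had 4.67 TPM in replicate 2, against 2.96 TPM in replicate 1, so that the ratio of the forms without over with the exon was 1.75 in replicate 2 and 2.99 in replicate 1. The exon keeps the reading frame, since the coding sequence is 1389 nt without it and 1404 nt with it.

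In the order of mean levels, the library values of neighbours overlapped at some steps and not at others. The values of *Nrtn*, *Gfra1* and *Ntf3* overlapped between the libraries, and so did those of *Bdnf*, *Ntrk3* and *Ntf5*. *Ntrk2* lay under *Ntf3*, *Artn* under *Ntrk2*, *Bdnf* under *Artn* and *Gdnf* under *Ntf5* in every library value and in the deposited intervals. Those intervals leave out the difference between pools of embryos. The steps without overlap were not among the pairs held against the spread. Of the 16 pairs of genes compared by ratio, 11 were beyond the spread in both libraries.

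Other genes of the neurotrophin system placed these levels in their pathway. Of 12 with a row, 11 had at least 1 TPM in both libraries and 0 were over 2-fold apart. Ngfr, the receptor that binds all neurotrophins, had 28.0 TPM in replicate 2, against 38.2 TPM in replicate 1, or 3.87-fold more than *Ntrk2*. The sorting receptors, which bind precursor forms or carry the receptors inside the cell, ranged from 20.9 and 22.5 TPM for Sorcs2 and 12.01 and 9.71 TPM for Sort1, in replicate 2 and replicate 1 in turn, to 1.5 and 1.14 TPM for Sorcs3. Sorl1 (4.14 TPM in replicate 2, 3.08 in replicate 1) and Sorcs1 (1.62 in replicate 2, 1.73 in replicate 1) lay between. Maged1, which binds Ngfr inside the cell, had 594 TPM in replicate 2, against 620 TPM in replicate 1. Kidins220, a scaffold of Trk receptors, had 17.0 TPM in replicate 2, against 16.3 TPM in replicate 1. Rtn4r (6.52 TPM in replicate 2, 5.95 in replicate 1) and Lingo1 (3.65 in replicate 2, 3.03 in replicate 1) form a complex with Ngfr. *Ntrk2* and *Ntrk3* were thus both lower than the shared receptor Ngfr.

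Of 9 further genes of the GDNF family system, 5 had at least 1 TPM in both libraries. Ret, the kinase through which the ligands act, had 0.40 TPM in replicate 2, against 0.37 TPM in replicate 1, from 79 and 57 expected counts. *Gfra1* was 29.9-fold higher than Ret on average, with log2 ratios of 4.90 in replicate 2 and 4.91 in replicate 1, beyond the spread of 3.10. The co-receptor Gfra2 had 6.52 TPM in replicate 2, against 6.57 TPM in replicate 1, and Gfra3 had 6.39 TPM in replicate 2, against 6.94 TPM in replicate 1. *Gfra1* was 2.18-fold higher than Gfra2 and 2.15-fold higher than Gfra3, beyond the spread in both. Gfra4 was higher than *Gfra1*, at 26.2 TPM in replicate 2, against 24.9 TPM in replicate 1, a difference for which no ratio was computed. All 4 co-receptor genes were well above Ret. Ncam1, which can act as a receptor for GDNF without RET, had 54.0 TPM in replicate 2, against 76.4 TPM in replicate 1, and Sdc3, a proteoglycan that binds these ligands, had 32.4 TPM in replicate 2, against 29.5 TPM in replicate 1. Pspn, which codes for persephin, had 0.10 TPM in replicate 2, against 0.36 TPM in replicate 1, from 1 and 3 expected counts, and was the 1 gene of the 8 tested in this list over 2-fold apart, at a depth that cannot show a difference. Gdf15, a distant relative of the family, had 0.20 TPM in replicate 2, against 0.14 TPM in replicate 1, and its receptor gene Gfral was listed at 0 in both.

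**Figure D4:**
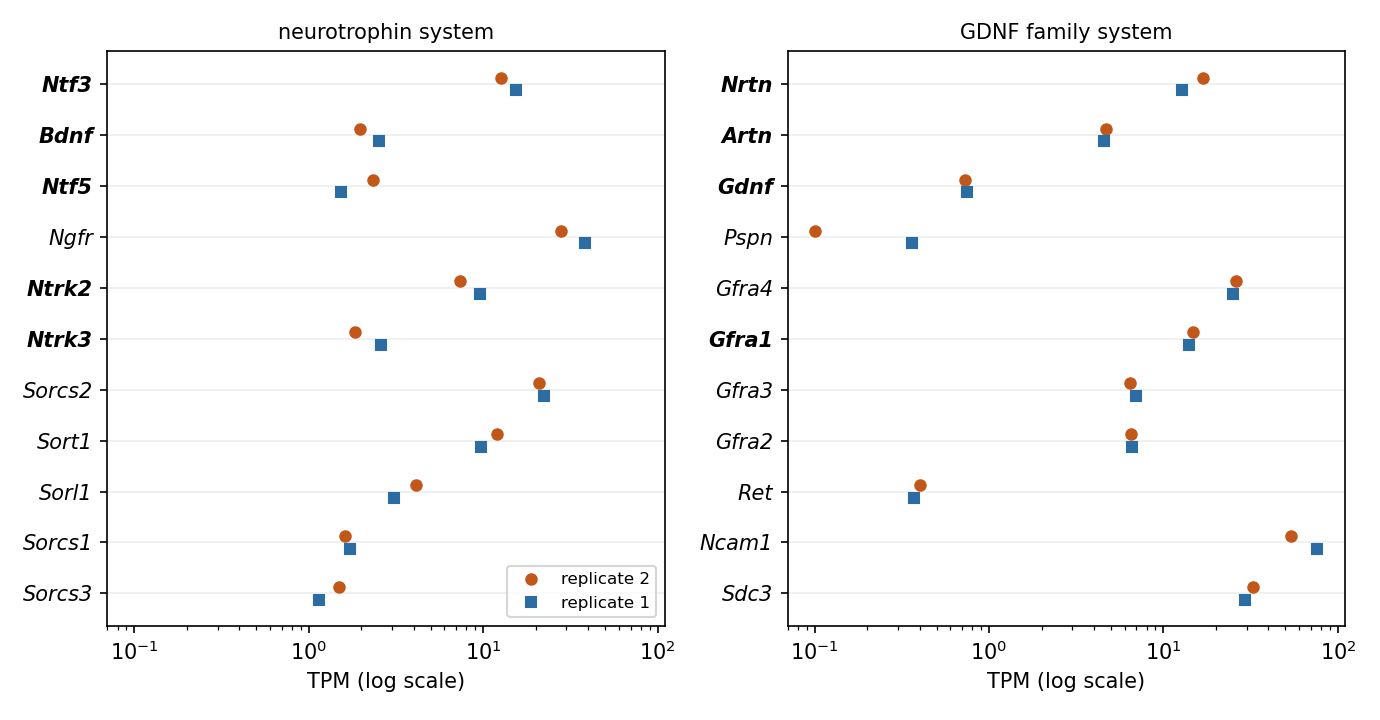
TPM (log scale) of genes of the neurotrophin system (left) and the GDNF family system (right), replicate 2 as circles above replicate 1 as squares, with the genes of the main group in bold. *Gdnf*, Pspn and Ret lie under 1 TPM, while Ngfr and Gfra4 lie to the right of the bold genes of their panels.

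None of the 9 genes was over 2-fold apart between the libraries, against 9.32% of all genes tested. They were 1.02-fold to 1.49-fold apart, with *Ntf5* the farthest at a log2 difference of 0.57 (replicate 2 over replicate 1) and *Artn* and *Gdnf* the closest at 0.03 and -0.03. The other differences were 0.39 for *Nrtn*, 0.08 for *Gfra1*, -0.29 for *Ntf3*, -0.35 for *Bdnf*, -0.39 for *Ntrk2* and -0.47 for *Ntrk3*. In all, 4 genes were higher in replicate 2 (46.3% of all genes tested were) and 5 were higher in replicate 1 (52.9% were). Their median absolute log2 difference was 0.35, against 0.18 over all genes tested. No gene of the 9 went beyond the spread at its level, which 4.95% of all genes tested did. The deposited intervals did not overlap for 4 of the 9 (*Nrtn*, *Ntf3*, *Ntf5* and *Ntrk2*), and for 17.5% of all genes tested. Those intervals leave out the difference between pools of embryos.

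**Figure D5:**
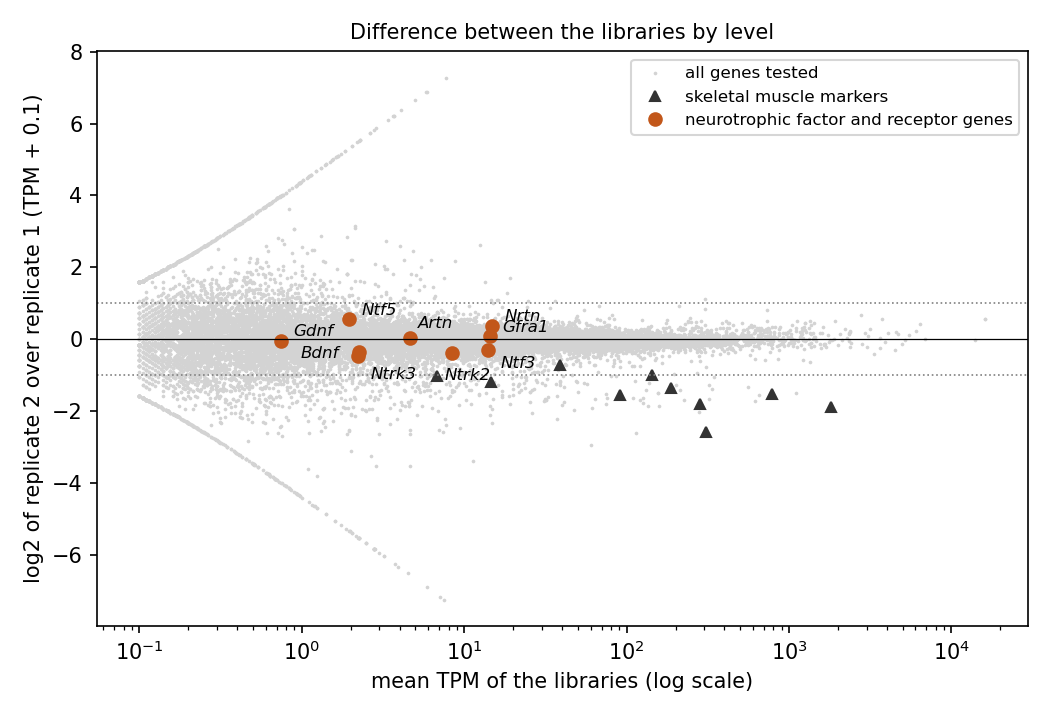
Log2 difference of replicate 2 over replicate 1 (TPM + 0.1) against the mean TPM (log scale) for all genes tested (grey), the 9 genes (circles) and the skeletal muscle markers (triangles), with dotted lines at 2-fold. The 9 genes lie inside the dotted lines, and 8 of 10 muscle markers lie under the lower one.

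Marker genes showed which tissues the limb samples held and in what the pools differed. Limb genes were present, with Tbx5, a forelimb gene, at 12.02 TPM in replicate 2, against 16.0 TPM in replicate 1. The hindlimb genes were Tbx4, at 18.0 TPM in replicate 2, against 12.6 TPM in replicate 1, and Pitx1, at 30.8 TPM in replicate 2, against 19.1 TPM in replicate 1. All 10 skeletal muscle markers, the tissue that innervating motor axons reach, were lower in replicate 2, with a summed level of 1690 TPM there and 5657 TPM in replicate 1 and a median 2.69-fold apart. Past 2-fold were Acta1 (779 TPM in replicate 2, 2862 in replicate 1), Myl1 (407 in replicate 2, 1157 in replicate 1), Ckm (88.0 in replicate 2, 529 in replicate 1), Tnnt3, Myh3, Myh8, Chrna1 and Musk. All 5 muscle progenitor markers were also lower in replicate 2, with Myf5 and Met the highest of them, and Lbx1 and Pax7 were past 2-fold. No marker of either muscle list was at 0. *Ntf3*, *Bdnf*, *Ntrk2*, *Ntrk3* and *Gdnf* were lower in replicate 2 as well, by 1.02-fold to 1.38-fold. *Ntf5*, *Nrtn*, *Gfra1* and *Artn* were higher in replicate 2, by 1.02-fold to 1.49-fold. Of all genes tested, 52.9% were lower in replicate 2. These ligand and receptor genes all stayed inside the spread at their level, and the part of muscle in their differences was not tested.

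Nerve and other tissues differed less. Of 10 Schwann cell markers, the glia of peripheral nerve, 8 had at least 1 TPM in both libraries and 0 were over 2-fold apart, with a summed level of 85.7 TPM in replicate 2, against 99.8 TPM in replicate 1. The highest were Ngfr, Erbb3 (16.8 TPM in replicate 2, 17.6 in replicate 1) and S100b (9.67 in replicate 2, 7.99 in replicate 1). Neuron markers summed to 41.1 TPM in replicate 2, against 33.0 TPM in replicate 1, with 6 of 12 at 1 TPM or more in both. Stmn2 (9.81 TPM in replicate 2, 9.86 in replicate 1), Nefl (11.5 in replicate 2, 7.69 in replicate 1) and Nefm (8.70 in replicate 2, 5.70 in replicate 1) led them. Chat, a marker of motor neurons, was at 0 in both, which allows up to 0.0718 CPM (counts scaled by depth) in replicate 2, against 0.0855 CPM in replicate 1. Whether motor axons were present in the limb cannot be read from this. Epidermis markers, led by Krtdap, Krt14 and Krt15, summed to 8023 TPM in replicate 2, against 7952 TPM in replicate 1. Connective tissue markers, led by Col1a1, Col3a1 and Dcn, summed to 8758 TPM in replicate 2, against 10160 TPM in replicate 1, and cartilage markers, led by Col2a1, Col9a3 and Cnmd, to 1499 TPM in replicate 2, against 1456 TPM in replicate 1. Endothelium markers (Egfl7, Pecam1 and Cdh5 the highest) summed to 185 TPM in replicate 2, against 217 TPM in replicate 1. Mural cell markers (Acta2, Pdgfrb and Cspg4 the highest) summed to 290 TPM in replicate 2, against 405 TPM in replicate 1, each of these 6 lower in replicate 2. The source of the 9 genes' RNA among these tissues cannot be read from whole-limb samples.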

How the data were processed

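Total RNA sequencing of 2 limb libraries was analysed from the tables per gene and per transcript that the authors deposited. Per the labels the build was mm10, and per the deposited notes the annotation was GENCODE M4. Which aligner, counter and strand setting made them is not given in the sources used here. Expected counts, per the file headers, stand beside TPM and FPKM; they are estimated counts and need not be whole. The percent columns the authors deposited give each transcript's share of its gene, and the deposited posterior means and interval bounds of TPM, handled as signal values, cover counting and read assignment only. Symbols, coordinates and transcript classes came from GENCODE M21. A symbol was found for 42462 of 43346 mouse gene rows, and 26248 rows with numeric identifiers and 97 other rows were left out.

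Differences and ratios used log2(TPM + 0.1). Genes whose mean TPM reached 0.1 were tested against the 2-fold mark and against the 95th percentile of absolute differences in 20 bins of mean TPM. Alternatives were posterior mean TPM, FPKM, other pseudocounts and filters, CPM not divided by length, counts rounded and scaled with edgeR 4.0.16 (TMM) or DESeq2 1.42.0 in R 4.3.3, and each library alone. The calculations ran in Python 3.11.15 with numpy 2.4.6 and pandas 2.3.3, and were tested on simulated data. The 9 genes and all lists were chosen with earlier results of these data known. Named were the 9 genes, every other gene of the 2 ligand systems (2 of them are counted but not reported here), the 3 highest genes of each other list with those over 2-fold apart, every *Ntrk2* or *Ntrk3* transcript with at least 5% of its gene, and the most abundant transcript of each other gene. Amplification from 10 ng of RNA adds noise that depth does not remove, and count limits cover counting error only.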

Additional observations from a re-analysis of the deposited data

How the results depend on the processing

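Of 89 alternative values for the difference between the libraries in the 9 genes, 0 changed sign and 0 moved past the spread. *Gdnf* rounded to 0.0 with FPKM. Settings that change only the filter or the bins leave the difference itself as it was, so its sign could not change there. *Ntrk2* came closest to passing the spread: with bins by mean expected count, an alternative chosen after seeing the data, the spread at its level was 0.39, the size of its difference. The share of all genes over 2-fold apart, 9.32%, was 5.26% with posterior mean TPM, 4.67% with TMM scaling, 4.65% with DESeq2 size factors, 2.31% with a pseudocount of 1, 6.11% without a filter and 3.67% with a mean of at least 1 TPM. It was 12.4% with a pseudocount of 0.01, 8.02% with FPKM and 9.34% centred on the median gene. With a pseudocount of 0.01, 7 pairs of genes rather than 11 were beyond the spread, those lost including *Gdnf* to *Nrtn*, *Gfra1* to *Gdnf* and *Gfra1* to Ret. The count was 14 with posterior mean TPM, a pseudocount of 1 or the added count bins, and 13 with CPM not divided by length. Under these 4 settings the ratios of *Ntrk2* to *Ntrk3*, *Ntrk2* to *Bdnf* and *Gdnf* to *Artn* passed. With CPM the ratios of *Ntf3* to *Bdnf* (1.03) and *Nrtn* to *Artn* (0.90) were lost. From expected counts, truncated *Ntrk2* averaged 93.5%, *Gfra1* without the exon 70.9% and full-length *Ntrk3* 68.1% (52.5% from TPM). The *Gfra1* share was 69.3% over the classed transcripts only, and full-length *Ntrk3* was 70.0% of coding transcripts. With each library alone, the share ran between 94.0% and 95.2% for truncated *Ntrk2*, 40.2% and 64.9% for full-length *Ntrk3*, and 55.3% and 63.3% for *Gfra1* without the exon. The cause of these shifts was not tested. No paired analysis was possible because there was 1 group. The depth leaves *Gdnf*, Ret and the truncated *Ntrk3* form on few reads.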

Other observations

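Genes that act before and after the neurotrophins were also read. Of 8 enzymes that can cleave neurotrophin precursors, 5 had at least 1 TPM in both libraries. Plat, tissue plasminogen activator, had 16.7 TPM in replicate 2, against 23.4 TPM in replicate 1. The proprotein convertases Pcsk7 (15.3 TPM in replicate 2, 15.9 in replicate 1) and Pcsk5 (13.5 in replicate 2, 14.2 in replicate 1) were the next highest. Plg, plasminogen, and Mmp3, a matrix metalloproteinase, were over 2-fold apart at low levels, with Plg at 0.58 TPM in replicate 2, against 0.07 TPM in replicate 1 and Mmp3 at 0.02 TPM in replicate 2, against 0.26 TPM in replicate 1. Of 15 adaptors that relay signals from these receptors, 13 had at least 1 TPM in both libraries and 0 were over 2-fold apart. The highest were Shc1 (89.0 TPM in replicate 2, 94.6 in replicate 1), Grb2 (75.4 in replicate 2, 72.5 in replicate 1) and Plcg1 (42.4 in replicate 2, 35.3 in replicate 1).

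Some trophic factors of other families had higher levels than any of the 9 genes. The median of the 17 genes listed was 6.64 TPM in replicate 2, against 7.58 TPM in replicate 1. Of the 17, 13 had at least 1 TPM in both libraries and 0 were over 2-fold apart. The heparin-binding growth factors Mdk (860 TPM in replicate 2, 760 in replicate 1) and Ptn (237 in replicate 2, 226 in replicate 1) and the secreted stress protein Manf (262 in replicate 2, 263 in replicate 1) led this list, each above 200 TPM, where the highest of the 9 genes, *Nrtn*, averaged 14.8 TPM.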
